A study of Mus musculus with 22 samples.

Results

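Liver gene expression was measured in hypophysectomised male mice (Hypox, the pituitary removed in adulthood) 90 min after 1 injection of growth hormone (GH), against Hypox males that received no GH. This comparison was held by 2 of the 22 arrays of the series, chosen by the groups in their labels, with the dyes swapped between them. Both groups were ICR males with an age of 8 weeks in the labels, and both carried the hypophysectomy. The labels give 7 mice with GH, in pools of 4 and 3, and 6 Hypox controls, in 2 pools of 3, so each array compared pooled livers and not single mice. The labels number the arrays replicate 1 (GH pool of 4) and replicate 2 (GH pool of 3), but the deposited value table assigns the scans to the opposite numbers. The pool size behind each array is therefore not settled, while GH over Hypox is the direction either way. Other groups used here were Hypox males 30 min after 1 GH injection, Hypox males 30 min after the last of 2 GH injections 4 h apart, Hypox females 90 min after 1 GH injection, and sham-operated mice of both sexes, which keep their own GH. The dose of GH, and whether the Hypox controls were injected with vehicle, are not given in the sources used here.

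Growth hormone binds its receptor on hepatocytes and activates the kinase JAK2, which phosphorylates STAT5 and other carriers of the signal. STAT5 enters the nucleus, binds DNA elements built around the letters TTC and GAA, and switches on genes such as Cish and Socs2, whose products then dampen the same signal. In the liver GH also drives the synthesis of insulin-like growth factor 1, opposes insulin on glucose metabolism and, through its sex-dependent pattern of release, sets many sex differences. Removal of the pituitary takes away the other pituitary hormones along with GH, and a GH injection restores GH alone.

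Values are log2 ratios of GH over Hypox, so 1 is a doubling and -1 a halving. A mean is given ± SE from limma, fitted to all 22 arrays. Genes were called where the Benjamini-Hochberg adjusted p was below 0.05 and the arrays had the same sign. Each array carries pools, and the Hypox mice recur on other arrays, so the errors cover the spread between arrays and treat recurring pools as independent. With bulk liver RNA, fewer cells of a type and less RNA per cell cannot be told apart. Of 33767 gene names 26192 were tested. The adjusted p-values below are limma's, and the number of arrays limits their precision.

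The 11 hepatocyte markers that were tested, such as Alb and Ttr, were well above background in both groups on both arrays. Replicate 1 also carried skeletal muscle RNA in its GH pool. There the 32 muscle markers tested had a median of 1.63, from 0.14 for Actn3 to 4.18 for Myl1, while on replicate 2 the median was 0.02, from -0.26 to 0.29. Their mean log2 signal was 8.93 in the GH pool and 7.18 in the Hypox pool of replicate 1, against 6.79 and 6.75 on replicate 2. limma called 0 of these 32 genes, and 0 had an unadjusted p under 0.05. The 7 neutrophil markers had a median of 0.87 and 0.80 on the arrays, with the calprotectin subunits S100a8 (2.17 and 2.07) and S100a9 (2.05 and 1.94) and the secreted Retnlg (1.68 and 1.70) well above background on both arrays. limma called 0 of the 7 (4 at an unadjusted p under 0.05), while Ltf and Mpo, granule genes of young neutrophils, were near 0 and Camp was not well above background. Their mean log2 signal was 8.84 and 8.93 in the GH pools and 7.86 and 7.98 in the Hypox pools. The part of neutrophils in the results below was not tested. For muscle RNA, values without replicate 1 are given beside some of the results that turn on that array. Calls given without such a value may also turn on it.

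limma called 1302 genes, 4.97% of those tested, of which 890 rose (3.4%) and 412 fell (1.57%), with 510 of them changed by at least 1.5-fold. Among genes with a RefSeq symbol, the largest rises included Cish and Socs2, inhibitors of cytokine signalling, and the early response genes Phlda1 and Myc. Nrep, Tifa, Serpina3k and the enzyme Aacs were also among the 15 largest. The largest falls, leaving out predicted genes and unnamed clones, were in G6pc, which releases glucose from the liver, and Depp1. Across genes, which are not independent replicates, the array ratios had r = 0.516, and 17 of the called genes differed by more than 1 log2 unit between arrays. Leaving out replicate 1 reduced the calls to 146, and leaving out replicate 2 to 329, of which 138 and 294 were also among the 1302 in the same direction. Without replicate 1, 19 of the 60 called genes chosen for naming were still called, and 28 were without replicate 2. The 18 that were called in both of these fits include Socs2, Phlda1, Nrep, Serpina3k, Aacs, Foxa1, Xbp1 and Igfals.

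**Figure D1:**
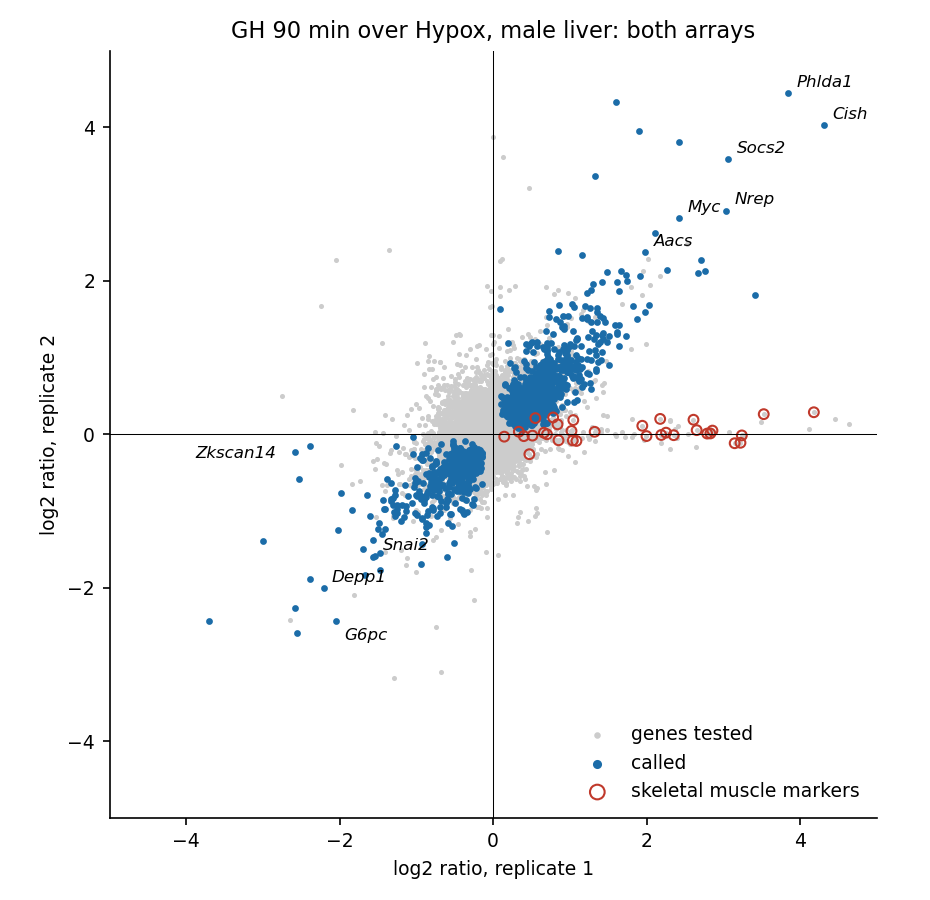
Log2 ratio of GH over Hypox on replicate 1 (horizontal axis) against replicate 2 (vertical axis), with a point for each gene tested, called genes in blue and the 32 skeletal muscle markers as open red circles. Called genes run along the diagonal, with Cish, Phlda1 and Socs2 above 3 on both arrays, while the muscle markers spread to 4.18 on replicate 1 and stay between -0.26 and 0.29 on replicate 2.

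Among the inhibitors of cytokine signalling, the SH2-domain proteins of the SOCS family stood out. Cish, a STAT5-induced protein that competes with STAT5 for the receptor, had a normalized log2 signal of 14.80 in the GH pool and 10.49 in the Hypox pool of replicate 1, and of 14.55 and 10.52 on replicate 2. The ratios were 4.31 and 4.03, a mean of 4.17 ± 0.68 or 18.02-fold (adjusted p = 0.00404, and 0.16 without replicate 1). Socs2, a negative regulator of GH signalling and body growth, had ratios of 3.07 and 3.58 (mean 3.33 ± 0.39, 10.0-fold, adjusted p = 0.00052). For both genes each GH pool was above each Hypox pool, by far more than the pools of a group differed from each other. Socs1, which blocks JAK kinases, followed at 2.26 and 2.14 (2.20 ± 0.46, adjusted p = 0.0155), a call that was lost without either array (adjusted p = 0.254 without replicate 1 and 0.155 without replicate 2). Socs4 rose by less, at 0.85 and 0.66 (0.76 ± 0.09, adjusted p = 0.000748).

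These 4 were the called members of 14 tested inhibitors, or 28.6% against 3.4% of all genes called up, with a median of 0.62 against 0.0018 for all genes. Socs3, the family member best known from interleukin-6 signalling, was uneven between arrays (1.22 and 0.36, adjusted p = 0.584). Spry4, an inhibitor of receptor tyrosine kinase signalling, had 0.98 and 0.60 (adjusted p = 0.253), and the phosphatase Dusp1 0.78 and 0.90 (adjusted p = 0.159). The phosphatase Ptpn1 was uneven (0.10 and 0.85, adjusted p = 0.393). Socs5, Socs6, Socs7, Spry2, Sh2b3 and the phosphatase Ptpn6 lay between -0.01 and 0.16. Without replicate 1 limma called 1 of the 14, and without replicate 2 it called 3.

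The receptor and the carriers of the signal gave no called gene: 0 of 15 passed, with 3 at an unadjusted p under 0.05 and a median of -0.03. Ghr, the GH receptor, was at -0.32 and -0.21 (adjusted p = 0.102), Jak2 at 0.10, Stat5a at -0.13 and Stat5b at -0.23. Pik3r1, the regulatory subunit of PI3-kinase, was at 0.55 (adjusted p = 0.108). Of Grb10, an adaptor that restrains growth factor receptors, the brightest probe gave 0.49 and another probe -0.24.

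In the IGF1 axis, Igfals rose and Igf1 did not pass the test. Igfals encodes the acid-labile subunit, which holds IGF1 in the circulation, and had ratios of 0.67 and 0.95 (0.81 ± 0.10, 1.76-fold, adjusted p = 0.000823). Igf1 itself had 0.50 and 0.44 (0.47 ± 0.16, adjusted p = 0.134). Igfbp1, an insulin-repressed binding protein of IGF1, had large negative ratios on both arrays, -2.64 and -2.41, but did not pass (-2.53 ± 0.68, adjusted p = 0.0525). Its signals were 13.39 and 13.82 in the GH pools and 16.03 and 16.23 in the Hypox pools. Igfbp2, Igfbp3, Igfbp4, Igf1r and Igf2r lay between -0.20 and 0.13. Only Igfals of the 8 members tested was called.

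The list of STAT5 and GH targets had 5 of 16 members called up (31.2%, against 3.4% of all genes), none down, with a median of 0.15. Without replicate 1 limma called 2 of them, and without replicate 2 it called 3. They were Cish, Socs2, Onecut1, Igfals and the cytokine receptor Lifr (0.41, named after its value was seen). Bcl6 (0.15) and Cux2 (-0.01), transcription factors that GH regulates in sex-dependent ways, did not pass, nor did the kinase Pim1 (-0.09), all named after their values were seen.

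STAT5 binds elements of the form TTCNNNGAA, which reads the same on both strands. Promoter sequences from RefSeq (GRCm38.p6; 250 bases before and 50 after each annotated start) were found for 390 of the 467 called rises with a RefSeq symbol and for 128 of the 160 falls. The 250 bases before a start held TTCNNNGAA in 39 of the 390 rises (10%), in 5 of the 128 falls (3.91%), and in 822 of all 10989 tested genes with a promoter (7.48%). The match is a description of letters, not of a binding site. The following stretches show it for some of the rises named in the text (Eef1e1 and Fmo2 also hold matches, from -212 and from base 13 after the start), 5′ to 3′ on the strand of the gene, with positions counted from the annotated start and with TTC and GAA in capitals. Cish is shown because both of its matches lie side by side, from base 1 and from base 12 after the annotated start, and Igfals because each of its 2 annotated starts has a match before it.
Cish, chr9:107296654-107296683, plus strand: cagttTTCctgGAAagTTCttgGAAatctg
Igfals, match from -58, chr17:24878168-24878186, plus strand: aggtgTTCctaGAAgaggc
Igfals, match from -236 of the other start, chr17:24877603-24877621, plus strand: ataatTTCtcaGAAaagag
Tgm1, match from -64, chr14:55713543-55713561, minus strand: cccttTTCccaGAAactcg
Tgm1, match from -173, chr14:55713652-55713670, minus strand: ctcagTTCctaGAAaggag
Nop58, match from -46, chr1:59684955-59684973, plus strand: gttacTTCccaGAAttctt
Slc22a26, match from -141, chr19:7802795-7802813, minus strand: taattTTCaggGAAtttac

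The letters between TTC and GAA vary among these matches, while the capitals and their spacing are the same by the search. Igfals and Tgm1 share cta there, and Tgm1 and Nop58 share cca. Of the 36 rises named or taken from the lists, 27 had a promoter in the table, 5 held a match before the start and 7 anywhere in the window. Socs2, Myc and Phlda1 had no entry in the table.

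Early response genes rose in part. Phlda1, a pleckstrin-homology-like protein linked to the control of cell growth and death, had log2 signals of 17.45 and 17.15 in the GH pools and 13.60 and 12.70 in the Hypox pools. Its ratios of 3.85 and 4.44 (4.15 ± 0.50, 17.7-fold, adjusted p = 0.000596) were close in size to those of Cish. Myc, a transcription factor of growth and ribosome production, had 2.42 and 2.82 (2.62 ± 0.53, 6.15-fold, adjusted p = 0.0139, and 0.185 and 0.211 when replicate 1 or 2 was left out). Its other probes gave 2.75 and 1.58, in the same direction. Gadd45g, a growth arrest gene, had 2.77 and 2.13 (2.45 ± 0.59, adjusted p = 0.032), and the small GTPase gene Rhob 1.42 and 1.08 (1.25 ± 0.13, adjusted p = 0.000267). With Ier2 (0.74, named after its value was seen) these were the 5 of 37 early response genes called up, 13.5% against 3.4% of all genes. None was called down, the median was 0.27, and 2 were called without either array.

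Many classical immediate-early genes were not called at this time. Jun had 1.42 and 0.64 (adjusted p = 0.212), Fos 1.07 and 0.60 (0.223), Atf3 1.31 and 0.70 (0.272) and Egr1 0.50 and 0.62 (0.505), all in adjusted p from limma and named after their values were seen. Gadd45b was at -0.09 and -1.53 (0.114). In all, 23 of the 37 genes were above 0 on both arrays, against 8213 of all 26192 genes tested.

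Other large rises came from genes of varied function. Nrep, which encodes a small protein first studied in regenerating nerve, had 3.03 and 2.92 (2.97 ± 0.24, 7.86-fold, adjusted p = 3.93e-05), with the arrays close together. Tifa, an adaptor in NF-kB signalling, had 2.67 and 2.11 (2.39 ± 0.53, adjusted p = 0.0216). Tgm1, a transglutaminase, had 1.48 and 2.11 (1.80 ± 0.20), the kinesin linker Sybu 1.64 and 1.86 (1.75 ± 0.17), E2f8, a repressor of cell cycle genes, 1.42 and 1.99 (1.70 ± 0.28), and the depalmitoylase Abhd17b 1.88 and 1.501 (1.69 ± 0.13). The other probe of Sybu that was above background gave only 0.24.

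Serpina3k, a serine protease inhibitor secreted by hepatocytes, was uneven, with 1.33 on replicate 1 and 3.36 on replicate 2 (2.35 ± 0.29, adjusted p = 0.000735). The call held without replicate 1 (3.14) and without replicate 2 (1.56), so its size, not its direction, turned on the array. Aacs, which makes acetoacetyl-CoA for lipid synthesis in the cytosol, had 1.98 and 2.37 (2.18 ± 0.12, 4.53-fold, adjusted p = 4.99e-06).

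**Figure D2:**
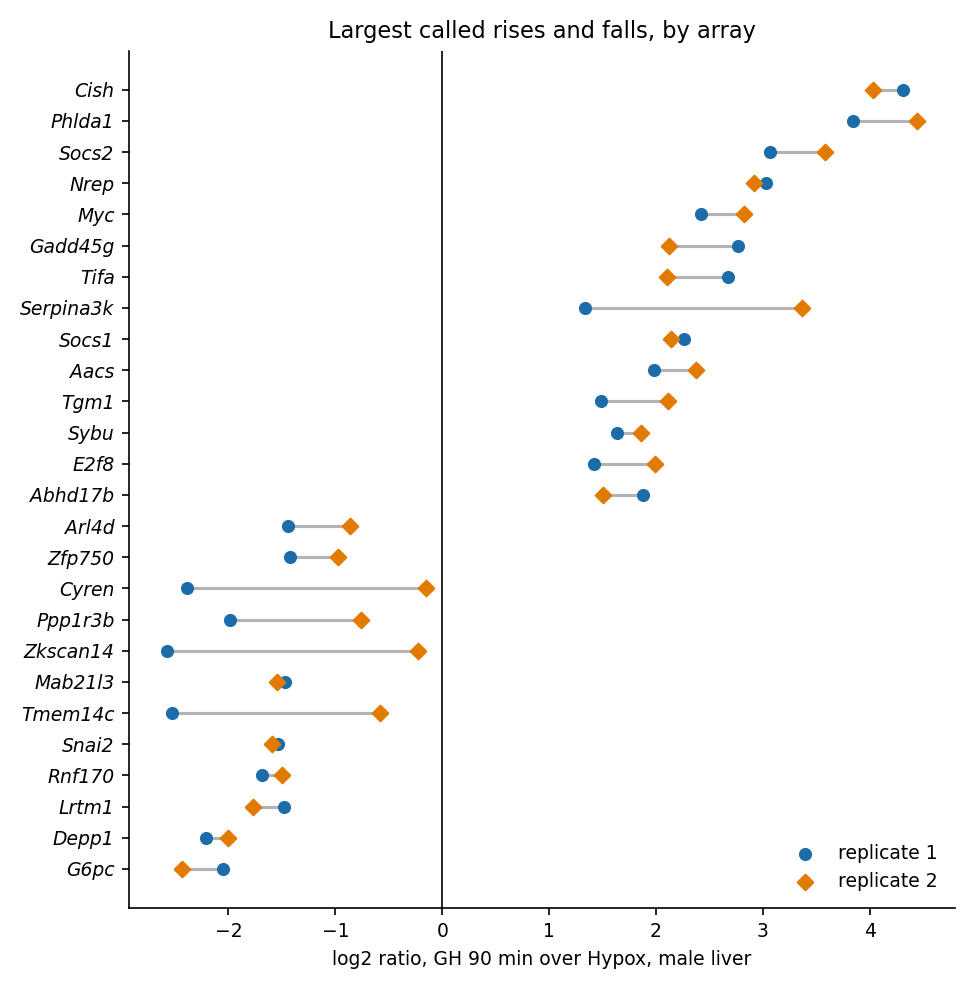
Log2 ratio of GH over Hypox on replicate 1 (blue circles) and replicate 2 (orange diamonds) for the called genes with a RefSeq symbol that rose or fell most, ordered by the mean, with a grey line joining the arrays. Cish, Socs2, Nrep, G6pc and Snai2 lie close together on both arrays, whereas Serpina3k was higher on replicate 2, and Zkscan14, Cyren and Tmem14c fell mainly on replicate 1.

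Of the genes of ribosome biogenesis, which build ribosomes in the nucleolus, 10 of 35 tested were called up and 0 down, 28.6% against 3.4% of all genes, with a median of 0.17. Rrs1, needed to assemble the large subunit, had 1.61 and 1.31 (1.46 ± 0.14, 2.75-fold, adjusted p = 0.000182). Nop58, a core protein of box C/D small nucleolar particles, had 1.05 and 0.76 (0.90 ± 0.14, adjusted p = 0.00279). Nolc1, a nucleolar chaperone, had 0.86 and 0.76, and Ppan, a factor of large subunit maturation, 0.76 and 0.72 (adjusted p = 0.00413 and 0.00419). With fewer arrays the calls thinned to 1 without replicate 1 and 3 without replicate 2, with medians of 0.14 and 0.22. In the translation list 1 of 15 was called, the tRNA synthetase partner Eef1e1 (0.42), and in the polyamine and nucleotide list 1 of 18, Odc1, the entry enzyme of polyamine synthesis (0.45 ± 0.11, adjusted p = 0.0388).

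Liver transcription factors gave 3 rises and 1 fall among 28 tested (10.7% and 3.57%, against 3.4% and 1.57% of all genes), with a median of 0.00. With either array left out 1 rise and no fall was called. Foxa1, which opens chromatin at liver genes, had 1.45 and 1.46 (1.46 ± 0.13, adjusted p = 9.8e-05). Onecut1, also called HNF6, had 1.22 and 1.53 (1.38 ± 0.22, adjusted p = 0.00404, and 0.109 and 0.0931 with replicate 1 or 2 left out), and its relative Onecut2 0.47 and 0.59 (adjusted p = 0.0197). Nr1i2, the xenobiotic receptor PXR, fell (-0.44 and -0.48, adjusted p = 0.0318). Xbp1, a factor of the secretory pathway, rose on both arrays, 1.43 and 1.32 (1.37 ± 0.16, 2.59-fold, adjusted p = 0.000473). Xbp1 was the only called member of 19 genes of endoplasmic reticulum folding, with 4 at an unadjusted p under 0.05 and medians of -0.01 on replicate 1 and 0.29 on replicate 2. The chaperone Hspa5 was at -0.16 and 0.54 (adjusted p = 0.706) and Creld2 at 0.34 and 0.65 (adjusted p = 0.258), both named after their values were seen.

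The list of female-biased liver genes had 6 of 28 members called up (21.4%, against 3.4% of all genes) and 0 down, with a median of 0.12. In the male-biased list 0 of 17 were called in either direction (median 0.01, 2 at an unadjusted p under 0.05). Fmo2, a flavin monooxygenase gene, was even, 1.28 and 1.35 (1.32 ± 0.13, adjusted p = 0.000199), and the anion transporter Slc22a26 had 1.06 and 1.65 (1.36 ± 0.28, adjusted p = 0.0137). Gadd45g, described above, was also among the 6. The sulfotransferase Sult3a1 was at 0.00 on replicate 1 and 3.87 on replicate 2 and was not called (adjusted p = 0.129; named after its values were seen). Leaving out either array left 1 of the 28 called.

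Genes of glucose output and glycogen fell in 3 of 18 cases and rose in none (median -0.16, against falls in 1.57% of all genes). G6pc, the catalytic subunit of glucose-6-phosphatase, had log2 signals of 13.85 and 13.63 in the GH pools and 15.89 and 16.06 in the Hypox pools. Its ratios were -2.05 and -2.44 (-2.24 ± 0.41, 4.73-fold lower, adjusted p = 0.00736, and 0.11 and 0.177 with replicate 1 or 2 left out). The glycogen-targeting phosphatase subunits Ppp1r3b (-1.99 and -0.76, mean -1.38 ± 0.26, adjusted p = 0.00897) and Ppp1r3c (-0.61 and -1.60, mean -1.10 ± 0.28, adjusted p = 0.0433) fell on both arrays by unequal amounts. Without replicate 1 none of the 18 was called, and Ppp1r3b was at -0.82 (adjusted p = 0.334). Pck1, the gatekeeper of gluconeogenesis from pyruvate, was uneven (-0.97 and 0.12, adjusted p = 0.421).

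The calls among lipid genes stand beside 3.4% called up and 1.57% called down of all genes. Of 20 genes of fatty acid and triglyceride synthesis 3 were called up and 1 down (15% and 5%, median -0.06), but none without replicate 1 and only 1 rise without replicate 2. They were Lpin1, a phosphatidate phosphatase (0.43 and 1.18, adjusted p = 0.036), the glucose-responsive factor Mlxipl (0.30 and 0.59, adjusted p = 0.0418), Acaca (0.55 and 0.38, adjusted p = 0.00392) and Gpam, the first acyltransferase of triglyceride synthesis (-0.31, adjusted p = 0.0449). Of Acaca, the acetyl-CoA carboxylase, the other probes gave -0.09 and -0.14, so its direction depended on the probe. In cholesterol synthesis 0 of 21 were called (7 at an unadjusted p under 0.05). Of the 21, 16 were below 0 on both arrays, against 7853 of all 26192 genes tested. The median was -0.67 on replicate 1 and -0.10 on replicate 2. Sqle, at -1.98 and -0.40, and Insig1, at -1.30 and -1.07, had the lowest means (adjusted p = 0.395 and 0.11; named after their values were seen). The array with the lower cholesterol values was also the array with muscle RNA, and a link between them was not tested. In males at 30 min the cholesterol medians were -0.20 and -0.19 on replicates 1 and 2, and the muscle medians 2.91 and -0.04.

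Depp1, a target of FOXO factors, had -2.21 and -2.01 (-2.11 ± 0.37, 4.31-fold lower, adjusted p = 0.00583). Snai2, a zinc-finger repressor, had -1.54 and -1.59 (-1.57 ± 0.17, adjusted p = 0.000369), and Rnf170, a ubiquitin ligase, -1.69 and -1.498 (-1.59 ± 0.18, adjusted p = 0.000438). Lrtm1 (-1.62), Mab21l3 (-1.51, another probe -0.26), Zfp750 (-1.20, and -0.85 without replicate 1) and Arl4d (-1.15) fell as well. A further 3 falls rested on replicate 1: Tmem14c at -2.53 and -0.58, Zkscan14 at -2.58 and -0.23, and Cyren at -2.39 and -0.15. Without that array they were at -0.53, -0.17 and -0.23 and were not called (adjusted p = 0.629, 0.822 and 0.481).

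Of the glucocorticoid-induced genes Fkbp5, a chaperone of steroid receptors, rose (0.73 and 0.88, 0.80 ± 0.14, adjusted p = 0.00547). Tsc22d3, also called GILZ, fell (-1.29 and -0.73, -1.01 ± 0.18, adjusted p = 0.0065), and was at -0.69 without replicate 1. These opposite calls were the only 2 among 12 genes. Of all genes tested 3.4% were called up and 1.57% down, so 1 call in this list or in those below says little about the list. The antiproliferative Btg1 (-0.87 ± 0.12, adjusted p = 0.00133) was the only call among 26 cell cycle genes, and Cry2 (-0.42, adjusted p = 0.0257) the only call among 18 clock genes. In the heat shock list the mitochondrial chaperonin gene Hspe1 (0.30) was the only call of 11, and Il1r1, the interleukin-1 receptor (0.67), that of 30 acute phase and NF-kB genes. Vil1, an actin-bundling protein of gut lining (-0.67, adjusted p = 0.0454), was the only called gene of all 12 marker lists.

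Interferon response genes leaned upwards without a call: 0 of 19 passed, with 1 at an unadjusted p under 0.05. Of the 19, 18 were above 0 on both arrays, against 8213 of all 26192 genes tested, and the list had a median of 0.41. Ifit1, for example, was at 0.93 and 0.89 (adjusted p = 0.316) and Stat2 at 0.61 and 0.83 (adjusted p = 0.0829), both named after their values were seen. This list varied between arrays elsewhere, with medians of 0.74 and -0.70 in males at 30 min and -0.08 and 0.62 in females at 90 min. Kupffer cell and macrophage markers had a median of 0.40 and 9 of 11 above 0 on both arrays, also with 0 called (3 at an unadjusted p under 0.05). The lists of fatty acid oxidation, bile acids and the respiratory chain had 0 called of 26, 13 and 18, with 2, 5 and 6 at an unadjusted p under 0.05 and medians between 0.01 and 0.09.

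**Figure D3:**
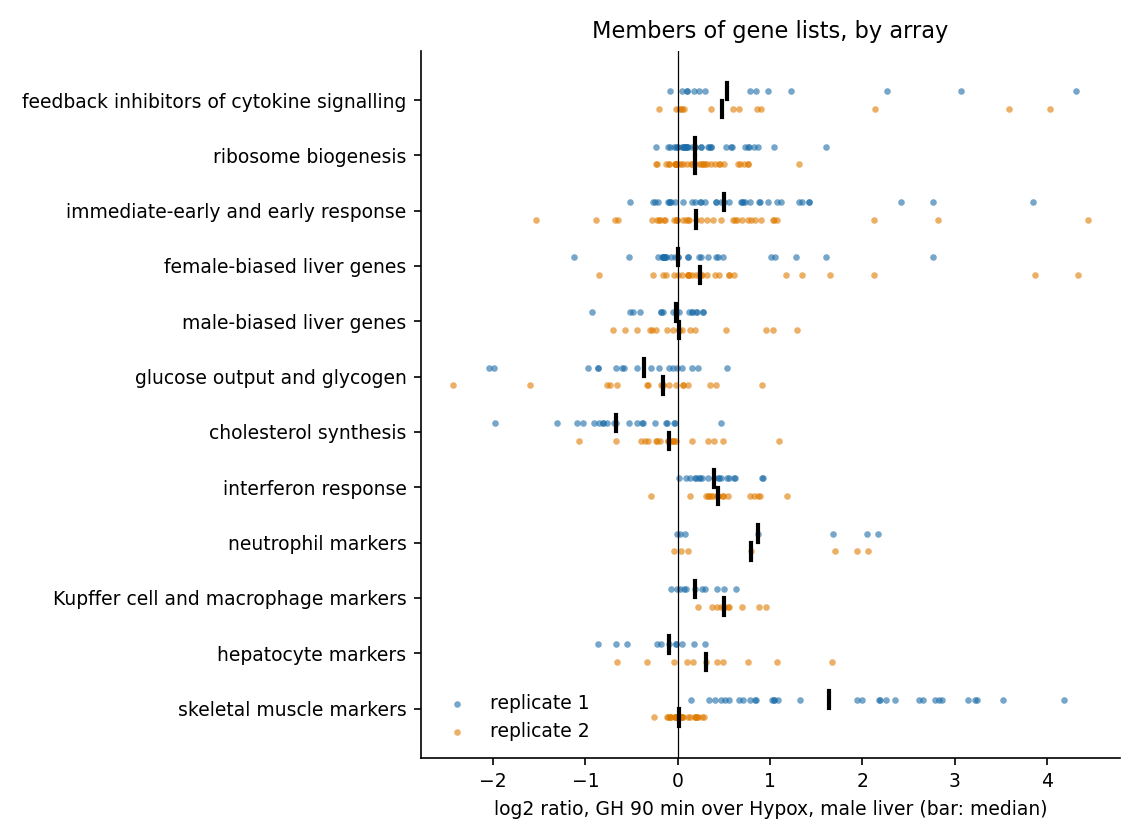
Log2 ratio of GH over Hypox for the members of 12 gene lists on replicate 1 (blue) and replicate 2 (orange), with a black bar at the median of each array. The inhibitors of cytokine signalling and the ribosome genes had similar medians on both arrays, whereas the muscle markers (1.63 and 0.02) and cholesterol genes (-0.67 and -0.10) differed between them.

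The comparison with 30 min asked which genes had changed between these times. Both comparisons used Hypox males as controls, and the group held 6 mice, so the control pools of both were made from the same mice. On the male arrays 657 genes were called at 30 min (2.51%) and 1302 at 90 min. By the contrast of both times 648 genes differed (2.47%), of which 367 had the higher ratio at 90 min and 281 the lower. That split depended on the scaling, being 362 to 141 with the scanner's own log ratio. It also depended on single arrays, with 25 calls without replicate 1 of 90 min, 43 without replicate 2 of 30 min, and 439 and 450 without the other arrays. The median of the muscle markers at 30 min was 2.91 on replicate 1 and -0.04 on replicate 2. Across genes the ratios of the 30 min arrays had r = 0.168, against 0.516 for the 90 min arrays, so the 30 min values are the less reproducible side.

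Some genes had a higher ratio at 90 min than at 30 min. Serpina3k was at -0.54 at 30 min and 2.35 at 90 min (difference 2.88 ± 0.41, adjusted p = 0.00638), Aacs at -0.49 and 2.18 (2.67 ± 0.18, adjusted p = 2.81e-05), and Nrep at 0.33 and 2.97 (2.65 ± 0.33, adjusted p = 0.00374). Sybu (-0.14 and 1.75) and Slc22a26 (-0.40 and 1.36) followed, with differences of 1.89 and 1.75. Rrs1 (difference 1.37), Xbp1 (1.32), Foxa1 (1.22) and Igfals (0.87) also passed. The ribosome list had 0 of 35 called at 30 min, 10 at 90 min and 30 up and 1 down after 2 injections, where 19.3% of all genes were called.

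For the inhibitors and early genes the difference between the times did not pass the test, and Socs2, Phlda1 and Gadd45g were already called at 30 min. Socs2 was at 2.22 at 30 min and 3.33 at 90 min (difference 1.11, 95% interval -0.09 to 2.30, adjusted p = 0.32), and Phlda1 at 3.02 and 4.15 (1.12, -0.40 to 2.65, adjusted p = 0.442). Cish had 2.19 and 4.17 (1.99, -0.09 to 4.06, adjusted p = 0.305), and Myc 0.80 and 2.62 (1.82, 0.18 to 3.45, adjusted p = 0.229). Gadd45g was at 2.47 and 2.45 (-0.02, -1.82 to 1.77). These intervals are not adjusted for the number of genes and are wide enough to hold both no change and more than a doubling, except that of Myc, which lies above 0.

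Lower at 90 min than at 30 min were Lars2, the mitochondrial leucyl-tRNA synthetase (1.48 and -1.14, difference -2.62 ± 0.40), Lrtm1 (0.97 and -1.62, -2.60 ± 0.57), Depp1 (0.36 and -2.11, -2.46 ± 0.52), Snai2 (0.24 and -1.57, -1.80 ± 0.24) and Synm, an intermediate filament protein abundant in muscle (1.71 and 0.11, -1.60 ± 0.26). Their adjusted p ranged from 0.0051 for Snai2 to 0.0355 for Lrtm1. G6pc was at -0.13 and -2.24, with arrays of -1.14 and 0.88 at 30 min, and its difference did not pass (-2.11, -3.36 to -0.86, adjusted p = 0.0747).

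The group with 2 GH injections set a later point, 30 min after the last injection, again with Hypox males as controls in pools of 5, which hold mice in common with each other and with the pools above. The difference from 90 min was called for 1992 genes (7.61%). It was called for 516 and 749 without replicate 1 or 2 of 90 min, and for 660 and 1084 without replicate 1 or 2 of the later group, whose muscle markers had medians of -0.01 and 2.41. Bhlha15, a factor of secretory cells (3.16 after 2 injections, -0.20 at 90 min), Serpina9 (2.77 and 0.27) and the pancreatic lipase gene Pnlip (2.74 and -0.03) were the named genes with the higher ratio after 2 injections. Pnlip was not well above background on either array at 90 min, and in the later comparison 9 of 10 pancreas markers were called up, with medians of 0.52 and 3.52 on its arrays. Lower after 2 injections were Padi4 (-1.60 and 1.18, the latter from arrays of 0.09 and 2.26, with 0.30 from another probe), Krt23 (-2.48 and 0.20), Upp2 (-1.74 and 0.88), Osbpl3 (-1.36 and 0.60) and Unc93a (-1.24 and 0.66), none of which was called at 90 min. Side by side, Socs2 was at 3.22 after 2 injections, Nrep at 2.95, Igf1 at 1.22 and Igfals at 1.68, against 3.33, 2.97, 0.47 and 0.81 at 90 min.

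Several of the genes that rose had been lower in Hypox than in sham males, a comparison that shares Hypox mice with the GH comparison. In it 37.3% of all genes tested were called, 4918 up and 4862 down. Hypox is divided by sham in that ratio and divides GH in the other, so a deviation of the shared mice moves them in opposite directions. The genes given here are examples, and the share of such genes among the rises was not tested. Serpina3k was at -4.42 in Hypox over sham, Socs2 at -2.55, Phlda1 at -2.74, Nrep at -1.99, Igfals at -1.90 and Aacs at -1.65, all called. Others had been higher in Hypox males and rose further with GH: Slc22a26 at 3.49, Sybu at 1.65 and Fmo2 at 1.21, all called. These 3 were also called lower in sham males than in sham females (-5.24, -2.13 and -1.45). Rnf170 had the opposite pair of values, 1.71 in Hypox over sham and -1.59 with GH. Cish varied between the arrays of that comparison, -4.21 and -0.61, and Myc was at -0.56 there and not called.

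**Figure D4:**
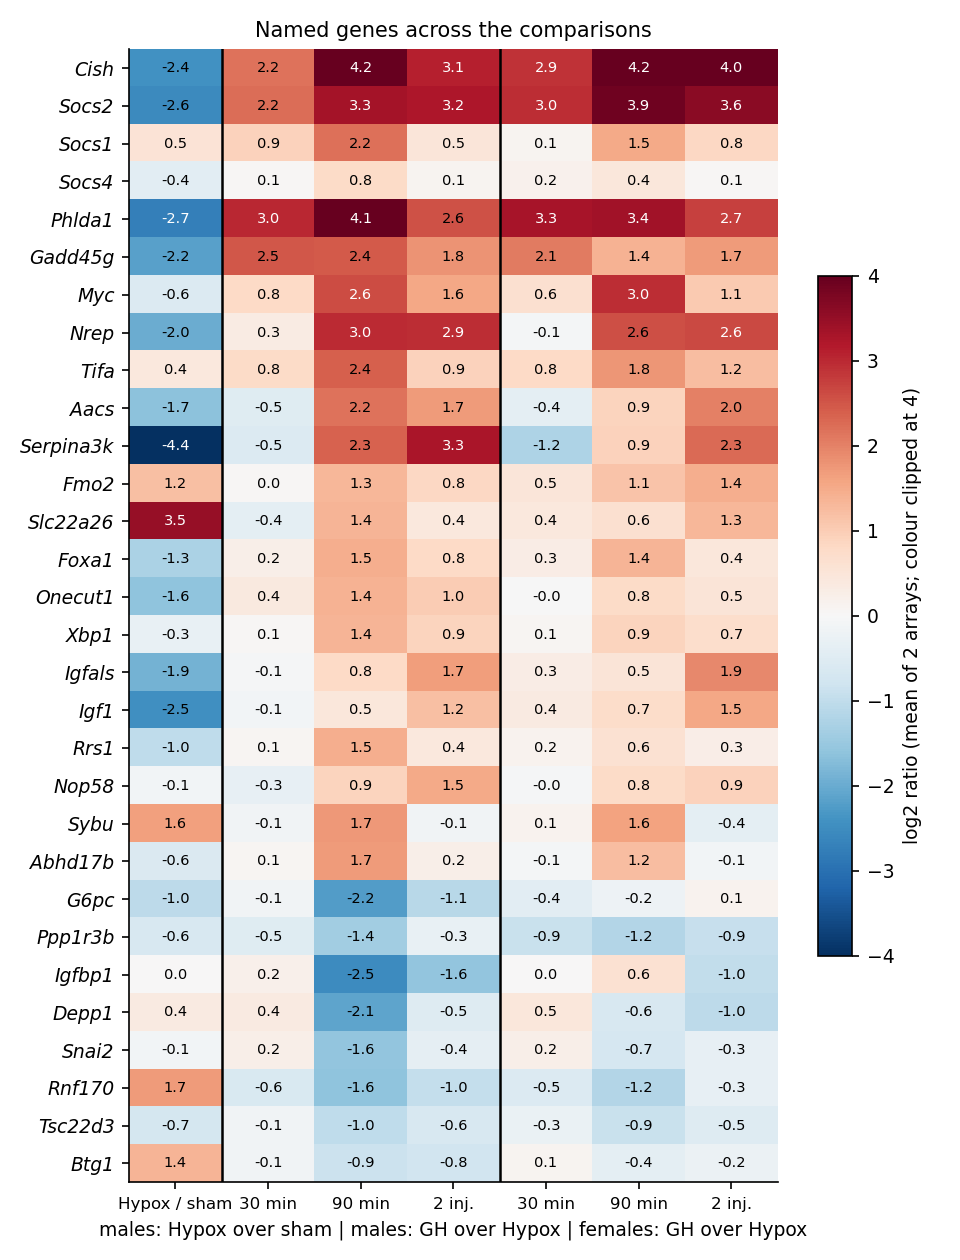
Mean log2 ratio over the 2 arrays of each comparison for 30 genes of the text (rows), in Hypox over sham males (left column), in GH over Hypox males 30 min and 90 min after 1 injection and after 2 injections (2 inj.), and in GH over Hypox females at the same times. Red is higher, blue is lower, and the number in each cell is the ratio, such as 4.2 for Cish at 90 min in both sexes and -2.2 and -0.2 for G6pc at 90 min in males and females.

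The comparison of the sexes asked whether males and females differed in their 90 min response. The female pools were of 4 and 3 mice with GH against 2 and 2 Hypox mice, with no mouse shared with the males. Of the 890 male rises, 740 (83.1%) were above 0 on both female arrays, against 35.3% of all genes tested, and 270 were called up in females, where 830 genes were called in all (3.17%), 2.34% up and 0.825% down. Of the 412 male falls, 261 (63.3%) were below 0 on both female arrays, against 23.7% of all genes, with 53 called down and 2 called up. Across all 26192 genes the male and female ratios correlated at r = 0.421, as a description across genes. The median female ratio was 0.25 for the male rises, whose male median was 0.51, and -0.13 for the male falls, whose male median was -0.50. The male medians are raised in size by the choice of called genes.

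The test of the difference between the sexes called 2 genes of 26192 (0.00764%), Zfp790 and Fgfr3. Zfp790, a zinc-finger gene, was at 1.15 in males (1.07 and 1.22) and 0.41 in females (difference 0.74 ± 0.08, adjusted p = 0.00896). Fgfr3, a fibroblast growth factor receptor, was at 0.61 in males (0.48 and 0.75) and -0.10 in females (0.71 ± 0.08, adjusted p = 0.0112). Its other probes gave 0.17 and 0.62 in males. The fit without sham arrays called 1 gene, with the lower ratio in males, so neither Zfp790 nor Fgfr3 was called there. Without replicate 1 of the males no gene was called (1903 at an unadjusted p under 0.05), 10 were without replicate 2 of the males, and 19 were without replicate 1 of the females.

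The largest rises did not differ between the sexes in the test, within intervals that are mostly wide. Cish was at 4.17 in each (difference 0.01, 95% interval -2.07 to 2.09), Socs2 at 3.33 and 3.89 (-0.57, -1.76 to 0.63), Nrep at 2.97 and 2.59 (0.39, -0.34 to 1.11), Myc at 2.62 and 2.97 (-0.34, -1.98 to 1.29) and Foxa1 at 1.46 and 1.37 (0.08, -0.32 to 0.49). Larger gaps were not called. Aacs was at 2.18 in males and 0.88 in females (1.30, 0.92 to 1.68, adjusted p = 0.0609) and Serpina3k at 2.35 and 0.92 (1.42, 0.54 to 2.31, adjusted p = 0.263). On the side of falls, G6pc was at -2.24 in males and -0.20 in females, with female arrays of 0.09 and -0.48 (-2.05, -3.30 to -0.79, adjusted p = 0.252). Igfbp1 was at -2.53 and 0.61 (-3.14, -5.22 to -1.05, adjusted p = 0.281). Ppp1r3b fell in both, -1.38 and -1.18. The intervals of these 4 uncalled gaps lie away from 0 before adjustment for the number of genes, and none passed after it.

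**Figure D5:**
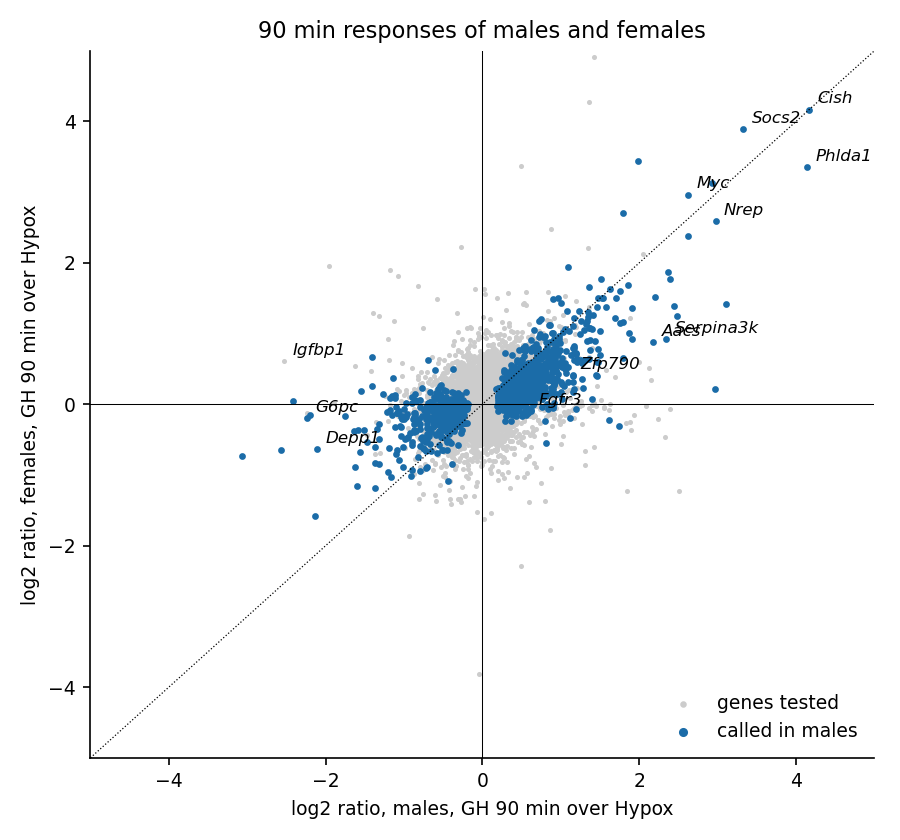
Log2 ratio of GH over Hypox at 90 min in males (horizontal axis) against females (vertical axis), each the mean of 2 arrays, for all genes tested, with genes called in males in blue and a dotted line of equal ratios. Cish, Socs2, Nrep and Myc lie near the line, while G6pc (-2.24 and -0.20) and Igfbp1 (-2.53 and 0.61) lie away from it.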

How the data were processed

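The scanner output that the authors deposited gives red and green spot intensity, as means with local background medians, together with flags. It also has a log10 ratio of red over green, computed by the feature extraction program per the file headers. The deposited value table holds log2 ratios that the authors normalized, per the labels, with the scale found by setting them against the scanner values. Its 22 columns follow the dyes of the scanner files, but 6 carried the same replicate number and 16 the other number of the same comparison, so the numbers of the scanner files were kept.

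Signals of 45018 spots per array were background corrected (normexp, offset 50) and loess normalized in limma 3.58.1 (R 4.3.3), without 1639 control spots and outlier flags. Of 41174 probes 22072 were named through RefSeq, and the brightest probe stood for each of 33767 gene names. Genes entered the tests where some comparison had a signal above background, by the scanner's flag, in either channel of each of its arrays. A single model (lmFit, eBayes) had 11 comparisons and a dye term over 22 arrays, and differences were its contrasts. It was tested on simulated data.

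The genes named are the marker genes, the 15 largest called rises and falls, up to 4 called members of each list, members of the lists on inhibitors, signal carriers and the IGF1 axis, marker genes of cell types, and the 5 largest differences each way. Unnamed clones and predicted genes are skipped, some genes are not reported here, and others are named as chosen after their values were seen. The members and lists were chosen with earlier results of these data known. Promoter matches are a description, and the Cish stretch reaches past the start, which the plan had left out.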

Additional observations from a re-analysis of the deposited data

Results flagged for a closer look

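The response 90 min after GH differed from that of other groups by a test of the difference itself, in limma with Benjamini-Hochberg adjustment. In males 648 genes differed between 90 min and 30 min, among them Serpina3k (2.88), Aacs (2.67), Nrep (2.65), Sybu (1.89) and Slc22a26 (1.75), which were higher at 90 min, and Lars2 (-2.62), Lrtm1 (-2.60), Depp1 (-2.46), Snai2 (-1.80) and Synm (-1.60), which were lower. Between 2 injections and 90 min 1992 genes differed. Bhlha15 (3.36), Pnlip (2.77) and Serpina9 (2.50) were higher after 2 injections, though Pnlip was not well above background at 90 min, so its value is set by the floor of the probe there. Padi4 (-2.77), Krt23 (-2.68), Upp2 (-2.63), Osbpl3 (-1.96) and Unc93a (-1.91) were lower, and the 90 min value of Padi4 rested on replicate 2 (2.26, against 0.09 on replicate 1). Between males and females at 90 min 2 genes differed, Zfp790 (0.74) and Fgfr3 (0.71). Pancreas markers stood out on the arrays after 2 injections and muscle markers on replicate 1 of both male times, and their part in these differences was not tested.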

How the results depend on the processing

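The alternatives were the scanner's log ratio, no background correction, no filter or a stricter filter on dim probes, the mean of all probes, no dye term, a loop model over group levels, slide as a random block, the replicate block, no sham arrays, the arrays of the comparison alone, and each array left out. Of the 124 results none changed sign where the gene was called in the main or the alternative fit. By the threshold, 1428 values stayed on their side, 212 lost it and 13 passed it. Uncalled genes could change sign, such as Stat3, at 0.31 in the main fit and -0.15 without replicate 2. The count of 1302 genes in GH over Hypox fell to 415 with its own arrays alone and to 146 to 329 with an array left out, where the lone array is assumed to vary like the others. Of 60 named genes called, 16 kept the call in every alternative, and 42 in all but those that leave out an array. For 90 min minus 30 min in males (648), the arrays alone gave 1, slide as a block 1028, and leaving out an array 25 to 450. For males minus females at 90 min (2), the loop model gave 7, the mean of probes 1, no background correction 26, the arrays alone 5, the scanner's log ratio 1, no sham arrays 1, no dye term 0 (limma, 2043 at an unadjusted p under 0.05), and leaving out an array 0 to 19. For 2 injections minus 90 min (1992), the arrays alone gave 3, the scanner's log ratio 1317, no dye term 1323, and leaving out an array 516 to 1084. The deviations of same-numbered arrays correlated at r = 0.306 with the 30 min males, on the same slides, and at -0.199 with the 90 min females and -0.359 with 2 injections, so the numbers were not taken to pair the samples. With the replicate block the counts were 1507 genes in GH over Hypox, 739 for 90 min minus 30 min, 3 for males minus females and 2102 for 2 injections minus 90 min. The motif share among rises was 11.5% with the bases after the start included, against 10% before it. The cause of these shifts was not tested, apart from the fewer arrays in some fits.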
